A study of Homo sapiens with 12 samples.

Results

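The untreated state of SK-OV-3 cells was described from the 3 arrays of cultures that received PBS, the saline control, out of 12 arrays in the series. SK-OV-3 cells are a long-established line from a human ovarian cancer. The 3 PBS cultures were separate dishes, labelled as biological replicates and kept for 24 h before RNA was extracted, so that the spread below is between dishes of 1 cell line and not between patients. The other 9 arrays came from 3 groups of 3 dishes of the same line and duration, with recombinant BMP2 at 100 ng/ml, with a compound that the labels call only DM at 5 µM, or with both. Those groups are used below only for the spread within each of them and, as a check, for a choice of probe sets over all 12 arrays. No treatment was compared with another. The cells carry no transgene or deletion that the labels name.

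The markers given for this state were ERBB2, PAX8 and ID1. ERBB2 encodes a receptor tyrosine kinase without a ligand of its own, which signals in pairs with EGFR or the other ERBB receptors and is known to be amplified in this line. PAX8 is a transcription factor of the Müllerian duct, from which the oviduct and uterus form, and it is used in pathology to recognise ovarian carcinoma. ID1 encodes a helix-loop-helix protein that blocks the DNA binding of differentiation factors and is a direct target of BMP ligands, which act through type I and type II receptors and the SMAD proteins.

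Each value is a MAS5 signal, a linear brightness of 1 probe set on 1 array, and a gene is represented by its brightest probe set that names a single gene. The 3 values given together are always PBS replicates 1, 2 and 3 in that order. A gene's percentile is its place among 19775 genes by the geometric mean of its 3 signals. Such a rank orders probe set signals and not numbers of transcripts, because probes differ in how well they bind. As a background level, 82 olfactory receptor genes were used, which encode odour receptors of the nasal epithelium. A gene was counted as above the olfactory receptor range where it passed the 95th percentile of these genes on each of the 3 arrays, a signal of 131, 134 and 166. With no treatment compared there is no p-value, and the 3 arrays limit the precision.

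Of the 19775 genes, 10078 (51%) lay above the olfactory receptor range on all 3 arrays, 2367 on 1 or 2 arrays and 7330 on none. None of the 82 olfactory receptor genes did so on all 3. The 51% is the share beside which each list count below is to be read. With the probe sets of each gene averaged in place of the brightest one, 7905 genes (40%) were above the range, and list counts that moved by more than 1.5 times at that setting are given beside the reported ones. Of 52 measured genes whose products are restricted to other tissues, such as globins, crystallins and pancreatic enzymes, 1 did, the myelin gene MBP with 928, 804 and 809, and 0 did with probe sets averaged. The 3 arrays had trimmed mean signals of 495.98 to 496.1, and their log2 signals correlated at 0.866 to 0.877 (Pearson) over all probe sets and at 0.981 to 0.982 over the genes above the range, a correlation across genes, which are not independent replicates. All 3 markers were near the top of the ranking. ERBB2 had signals of 9412, 11967 and 11487, a mean of 10955 ± 1358 (SD, n = 3), and was at the 97.5th percentile. PAX8 had 4947, 4837 and 5781, a mean of 5188 ± 516 (SD, n = 3), at the 94.4th percentile. ID1 had 20001, 19408 and 17605, a mean of 19004 ± 1248 (SD, n = 3), at the 98.9th percentile. The highest and lowest cultures differed by 1.27, 1.2 and 1.14 times for these 3 genes, against a median of 1.24 over all genes above the range. In the brightest quartile of those genes, which holds all 3 markers, the median was 1.15. Of all genes above the range, 298 (2.96%) differed 2-fold or more between the highest and the lowest culture.

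**Figure D1:**
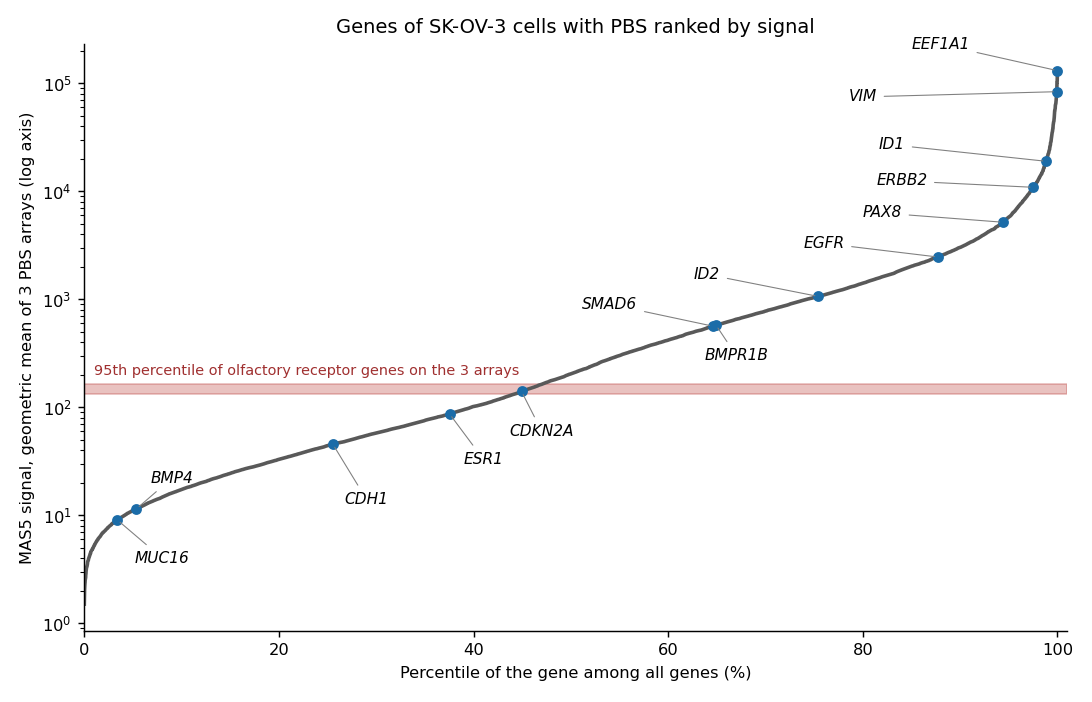
The geometric mean MAS5 signal over the 3 PBS arrays (log axis) is plotted against the percentile of each of 19775 genes, with the 95th percentile of the olfactory receptor genes on the 3 arrays as a band. EEF1A1, VIM, ID1, ERBB2 and PAX8 sit at the upper end, CDKN2A lies on the band, and ESR1, CDH1, BMP4 and MUC16 lie under it.

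The 20 brightest genes held 7 genes of ribosomal proteins (RPL41, RPL37A, RPS16, RPL7, RPS18, RPS4X and RPS23) and EEF1A1, the factor that delivers aminoacyl-tRNA to the ribosome, which ranked first with 100616, 143729 and 156392. Cytoskeletal genes among them were TMSB10 and TMSB4X, which encode actin-binding thymosins, TUBA1B, an alpha-tubulin, and VIM, the intermediate filament protein of mesenchymal cells. LDHA, the lactate dehydrogenase of glycolytic tissues, had 89826, 104091 and 117438, and HSP90AA1, a chaperone, had 81984, 99492 and 108365. The list also held the calcium-binding S100A6 and S100A4, TPT1, a translationally controlled protein, the ubiquitin ligase gene HUWE1, and the mitochondrially encoded COX2, a subunit of cytochrome c oxidase. The place of HUWE1 rests on 1 of its 5 probe sets, and its log2 level of 16.68 was 8.81 with the 5 averaged. Other places depend on the probe set too. Among others, the log2 levels of S100A6, RPL37A, RPL7 and VIM were 12.04, 11.69, 12.36 and 11.49 with probe sets averaged, in place of 16.97, 16.70, 16.53 and 16.35. FTH1P5 came next after S100A6 with 97060, 131373 and 149621, but it is a pseudogene of the ferritin heavy chain and its probes can bind the RNA of the parent gene, so its value is uncertain. In the same way, probes for ribosomal proteins can bind RNA of their many processed copies. The ratio of the highest to the lowest culture was from 1.18 to 1.56 in these 20 genes, and PBS replicate 1 was the lowest of the 3 in 20 of 20. Over all genes above the range it was the lowest in 35.1%.

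Messenger RNAs of ribosomal proteins and elongation factors are known to begin with a run of pyrimidines that ties their translation to mTOR signalling. The stretch around the annotated start, 20 bases before it and the first 10 transcribed bases, is shown for 5 of the 20 brightest genes that hold such a run, for RPS4X, a ribosomal protein gene among the 20 that does not, and for the 3 markers. The sequences are from RefSeq (GRCh38.p14), 5′ to 3′ on the transcribed strand, and capitals mark the run searched for, a C followed by at least 4 bases that are each C or T, beginning within 5 bases of the start and taken from the C nearest to it.
EEF1A1, chr6:73521023-73521052, minus strand: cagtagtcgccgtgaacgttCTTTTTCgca
TPT1, chr13:45341174-45341203, minus strand: tggggagcggctgagtcggcCTTTTCCgcc
RPL41, chr12:56116613-56116642, plus strand: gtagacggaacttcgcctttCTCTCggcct
RPL37A, chr2:216498824-216498853, plus strand: cctgcgcaccgcgtctcttcCTTTCTgggc
RPS16, chr19:39435940-39435969, minus strand: ccagggtggcccctagctttCCTTTTCCgg
RPS4X, chrX:72277239-72277268, minus strand: cgcgcgcagtctccagccccaatttctacg
ERBB2, chr17:39688074-39688103, plus strand: gagtaaccggaagttcctgtgttctttatt
PAX8, chr2:113278912-113278941, minus strand: gtcggtgatgccgggtggatgggaacaaac
ID1, chr20:31605269-31605298, plus strand: agctgtggctccgcaCTCTCattccacgtt
In the first 5 genes, chosen because they hold the run, this C is the first transcribed base. The run searched for was absent from the windows of RPS4X, ERBB2 and PAX8, and in ID1 it lay 5 bases before the start. Promoters were found for 15384 of the genes measured. The run, searched on the transcribed strand alone, was in 22.1% of them, in 43.8% of the 162 genes in the brightest 1%, and in 80.4% of 51 cytosolic ribosomal protein genes. Without the ribosomal protein genes the share in the brightest 1% was 28.6% of 119. A match is a description of the letters and not a tested site.

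The letters of the promoters differed along the ranking in other ways. In the 300 bases from 250 before to 50 after the start, genes above the olfactory receptor range had a median of 27 CG pairs (8371 genes), and genes above it on no array had 9 (5286 genes). By deciles of the signal the median was 7 in decile 1, 14 in decile 4, 23 in decile 5 and 27 or 28 from decile 6 to 10. The letters TATAAA, between 40 and 16 bases before the start on the transcribed strand, were in 2.97% of all promoters, in 1.40% of those of genes above the range and in 5.20% of those above it on no array. In the brightest 1% they were in 8.02%, or 13 of 162 promoters. The number of CG pairs thus differed along the ranking up to about decile 6, and TATAAA was least frequent in deciles 7 and 8, at 0.845% and 0.910%.

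In SK-OV-3 with PBS some Müllerian factors, such as PAX8 and SOX17, were above background and others, such as PAX2 and EMX2, were not. Genes of epithelial and of mesenchymal cells were both present. Of the measured Müllerian and ovarian lineage factors, 9 of 16 were above the range, a share of 56.2% against 51% of all genes. MECOM, a zinc finger regulator often gained in ovarian cancer, had 8741, 8209 and 7794. KLF5, a Krüppel-like factor of epithelia, had 4671, 3722 and 3700.3. SOX17, which marks the Müllerian duct together with PAX8, had 1551, 1497 and 1499.5. These 3 genes had ratios between cultures of 1.12, 1.26 and 1.04. TFAP2A, GATA6, LHX1, SOX9 and ARID1A were also above the range. WT1, a factor of mesothelium and serous carcinoma, was not above it on any array, with 118, 90.2 and 60.1, and PAX2, GATA3, GATA4, FOXJ1 and EMX2 were not either. TFAP2C passed on 1 array, with 19.3, 51.6 and 198.

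Among genes of antigens known from ovarian carcinoma, 11 of 21 were above the range (52.4%), near the 51% of all genes. SLPI, a secreted protease inhibitor, had 8764, 10083 and 9292, and FOLR1, the folate receptor alpha, had 5482, 5401 and 5088. SPP1, which encodes osteopontin, had 4995, 5451 and 5028. EPCAM and CD24, cell surface glycoproteins of epithelia, and LCN2, a siderophore-binding lipocalin, were also at or above the 90th percentile. WFDC2, which encodes the serum marker HE4, was lower in the ranking with 179, 181 and 274, at the 50.2th percentile, and CLDN3 was at the 50.3th. MUC16, which carries the CA125 epitope, was not above the range on any array, with 16.5, 5.03 and 8.84, and MSLN, which encodes mesothelin, passed on 1 array with 81, 194 and 30.8. The kallikreins KLK6, KLK7, KLK10 and KLK11 did not pass on any array, and KLK5 and KLK8 passed on 1.

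Keratins and desmosomal genes of epithelia were bright while the classical cadherin of epithelia was not above background. Of the epithelial keratin and junction genes 15 of 24 were above the range (62.5%). KRT18, a keratin of simple epithelia, had 14007, 15221 and 14057, and its partner KRT8 had 5128, 6829.9 and 6329. KRT19, CLDN1, the desmosomal genes DSG2 and DSP and the tight junction gene TJP1 were likewise above the 90th percentile. KRT7 had 1228, 1226 and 1249, a ratio of 1.02 between cultures. CDH1, which encodes E-cadherin, was above the range on none of the arrays, with 80.6, 107 and 10.8. The epithelial regulators GRHL2, OVOL1 and ESRP1, the placental cadherin CDH3 and the basal keratins KRT5 and KRT14 also did not pass on any array. CDH2, which encodes N-cadherin, had 1724, 1354 and 1311. Of 15 mesenchymal genes 12 were above the range (80%). VIM had 68524, 89598 and 95853 and FN1, which encodes fibronectin, had 6084, 8672 and 9219.6. Among the repressors of CDH1, SNAI2 had 2927, 2903 and 2640.2, ZEB1 had 1892, 1604 and 1705 and TWIST1 had 1594, 1224 and 1276, whereas SNAI1 and ZEB2 did not pass on any array. No E-cadherin gene signal above background thus stood beside N-cadherin, vimentin and 3 CDH1 repressor genes on each of the 3 arrays.

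**Figure D2:**
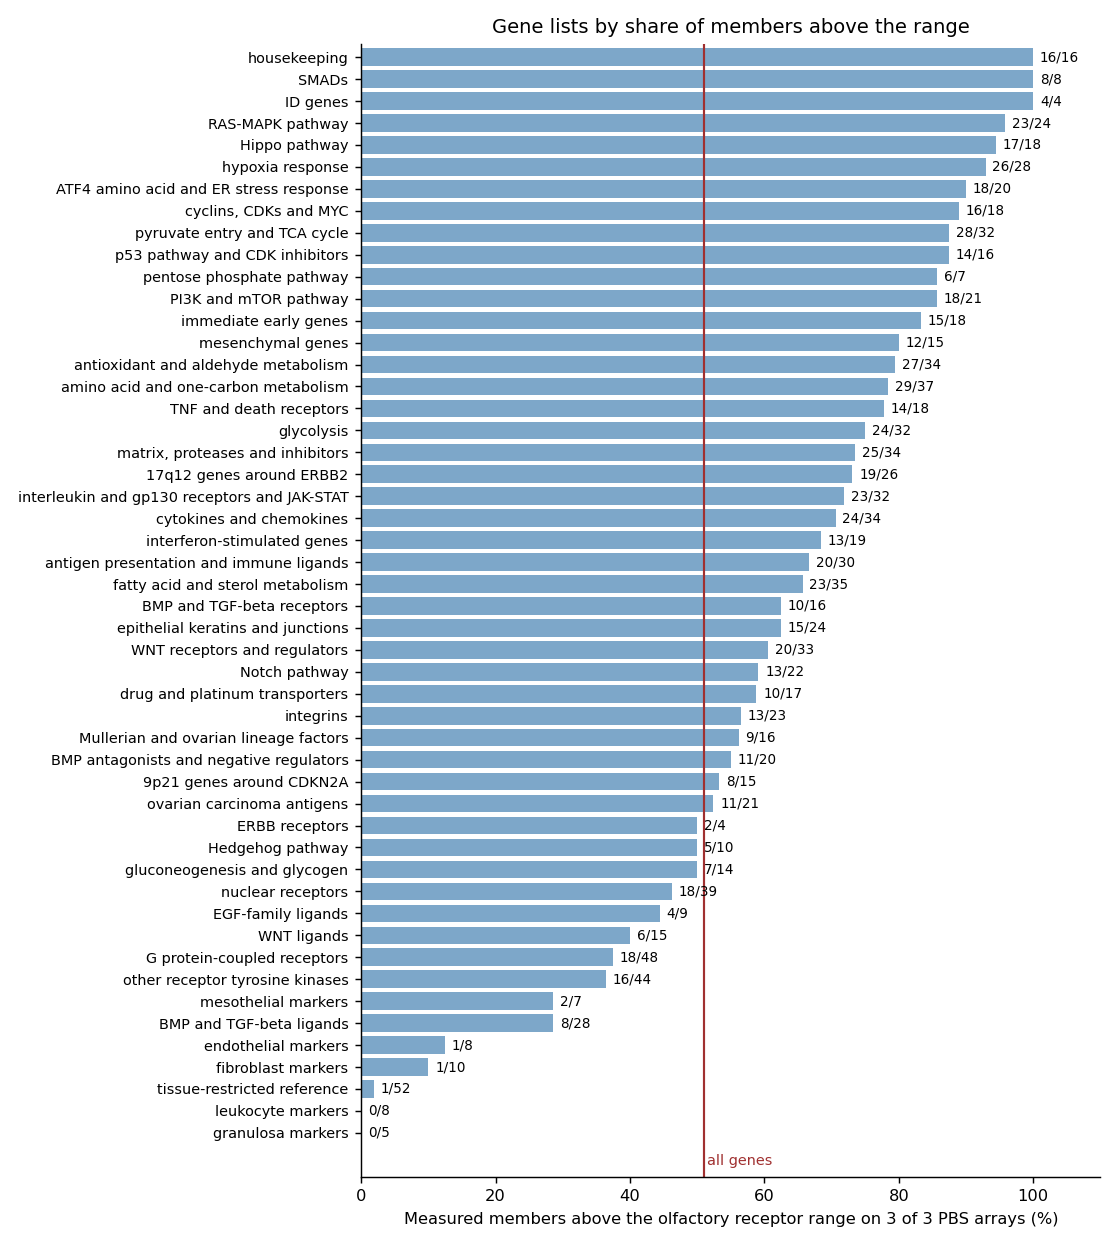
Bars give the percentage of measured members of each of 50 gene lists that were above the olfactory receptor range on 3 of 3 PBS arrays, with the counts beside them and the 51% of all genes as a line. All SMAD, ID and housekeeping genes measured were above it, and leukocyte and granulosa markers had no member above it.

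Of the 4 ERBB receptors, ERBB2 and EGFR were above the range. EGFR, the receptor of EGF, had 2379.6, 2408 and 2607, at the 87.7th percentile and with a ratio of 1.1 between cultures. Its log2 level was 7.83 with probe sets averaged, in place of 11.27. ERBB3, which has little kinase activity and signals through its partner, passed on 2 arrays with 118, 211 and 179. ERBB4 had 50.2, 125 and 109 and passed on none. The ligands TGFA, BTC, HBEGF and NRG1 were above the range, 4 of 9 of those measured and 2 with probe sets averaged. TGFA, a ligand of EGFR, had 2155, 1868 and 2381, while EGF itself had 3.49, 63.6 and 1.86 and did not pass. NRG1, a ligand of ERBB3 and ERBB4, had 278, 179.9 and 349, with the largest ratio among these ligands at 1.94.

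The neighbours of ERBB2 on chromosome 17 were unequal. From LASP1 to TOP2A, 19 of 26 measured neighbours, ERBB2 included, were above the range. PPP1R1B, which encodes the phosphatase inhibitor DARPP-32, had 16419, 23571 and 27036 and ranked first in the region, at the 99th percentile. It was highest in replicate 3, with a ratio of 1.65. STARD3, a cholesterol-binding protein of late endosomes, had 2522, 3346 and 2869, PGAP3 had 2279, 1757 and 1686, and MIEN1, next to ERBB2, had 6339, 6762 and 6394. GRB7, an adaptor of ERBB2 and the next gene along, had 723, 1040.1 and 995, at the 72.6th percentile. The run from STARD3 to GRB7 was interrupted by TCAP, a muscle gene that was not above the range, and PNMT, the enzyme that makes adrenaline, was above it with 495, 658 and 710.3. Beyond GRB7, IKZF3, ZPBP2, CSF3, MED24 and RAPGEFL1 did not pass on any array. PSMD3, ORMDL3, THRA, MSL1, CDC6 and RARA, which lie between and beyond them, were above the range. TOP2A, a topoisomerase of dividing cells, had 11865, 11448 and 10869.5, and LASP1, an actin-binding adaptor, had 18472, 19015 and 19295. The signals hold no measure of gene copy number.

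Around CDKN2A on chromosome 9, 8 of 15 measured genes were above the range (53.3%, near the 51% of all genes), and 4 with probe sets averaged. CDKN2A, which encodes the cyclin-dependent kinase inhibitor p16 and the MDM2 inhibitor p14ARF, passed on 2 arrays with 185, 210.3 and 70.8. CDKN2B, the neighbouring p15 gene, did not pass on any array with 30.1, 9.91 and 3.88. MTAP, a methionine salvage enzyme whose gene adjoins CDKN2A, had 779, 605 and 562 and was above the range on all 3 arrays. FOCAD on the one side and TUSC1, CAAP1, PLAA and IFT74 on the other were above it as well, with geometric means from 544 to 1915, and MLLT3 and MOB3B, farther out, were above it at lower levels. The CDKN2A values lie too close to the background level to say whether RNA of the gene was present.

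**Figure D3:**
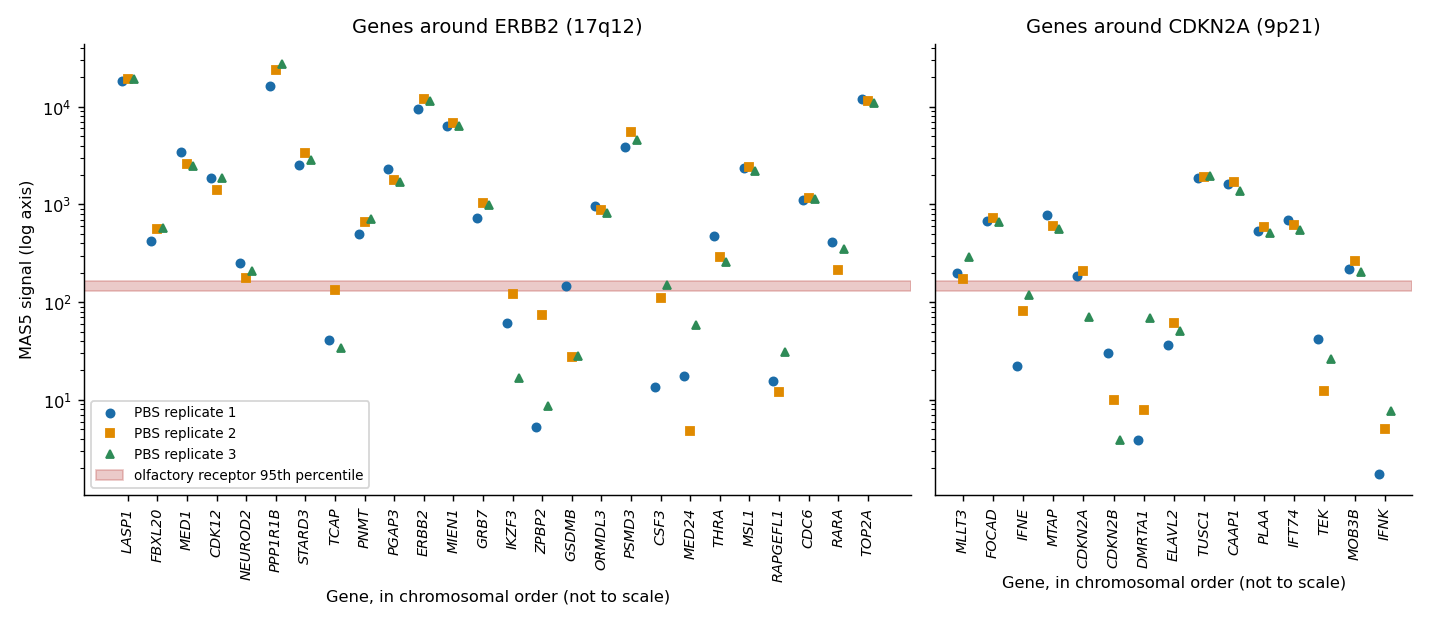
MAS5 signals (log axis) of the genes around ERBB2 (left) and around CDKN2A (right) are shown in chromosomal order, not to scale, for each of the 3 PBS cultures, with the olfactory receptor 95th percentile as a band. PPP1R1B, ERBB2, MIEN1, LASP1 and TOP2A stand at the top on the left, and on the right the 3 points of CDKN2A lie on both sides of the band and those of CDKN2B lie under it, between MTAP and TUSC1.

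Among the other receptor tyrosine kinases, 3 stood out by level, and 16 of 44 were above the range, 36.4% against 51% of all genes, and 10 with probe sets averaged. MET, the receptor of hepatocyte growth factor, had 8037, 8236 and 9063, and AXL, a receptor of GAS6, had 7621, 7427 and 7513. RYK, a WNT receptor with an inactive kinase domain, had 6505, 6342 and 6479. The 3 ratios were 1.13, 1.03 and 1.03, so the cultures differed little in them. PTK7, EPHA2, FGFR1, ROR1, MST1R, EPHB4, IGF1R, INSR, FGFR3, FGFR4, TYRO3 and NTRK2 were above the range at lower levels. HGF, the ligand of MET, passed on 1 array, with 89, 160.0 and 83.9. The receptors KIT, PDGFRA, PDGFRB, KDR, FLT1, FLT3, FGFR2, RET, ALK and CSF1R did not pass on any array. MERTK, of the AXL family, had the largest ratio of those above the range at 2.62, with 155, 144 and 375, its high value in replicate 3.

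By their brightest probe sets, receptors of both the BMP and the TGF-beta branch were above background, while most ligands were not. Of the receptors and co-receptors measured, 10 of 16 were above the range (62.5%). With probe sets averaged 5 of the 16 were, against 40% of all genes, and the log2 level of TGFBR1 was 7.24 in place of 11.36 and that of ACVR1B 7.05 in place of 10.78. Of the type II receptors, TGFBR2 had 2141, 1954 and 2161, BMPR2 had 1492, 1657 and 1571, and the activin receptors ACVR2A and ACVR2B had 356, 290.0 and 340.4 and 276, 407 and 249. AMHR2, the receptor of anti-Müllerian hormone, was not above the range with 12.2, 9.79 and 25.5. Type I receptors pass the signal to the SMADs. TGFBR1 had 2592, 2623 and 2649.9, ACVR1B had 1733, 1645 and 1923, ACVR1 had 1053, 1245 and 1218, and BMPR1B had 574, 552 and 606. In each of these 4 the ratio between cultures was at most 1.18. BMPR1A, another type I receptor of BMP ligands, is not among the 16 measured and was not analysed here, so nothing is said of its level. ACVRL1, the endothelial type I receptor, passed on 2 arrays with 171, 143 and 98.1, and ACVR1C did not pass on any with 79.6, 10.3 and 107. Among co-receptors TGFBR3 had 315, 301 and 335 and RGMB had 325, 387 and 409.8, RGMA passed on 1 array with 75, 129.7 and 194, and ENG (77.1, 18.9 and 58) and HJV (60.2, 62.6 and 2.86) did not pass on any. ACVR2B had the largest ratio of the receptors above the range, 1.63, with replicate 2 the highest.

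All 8 SMAD genes were above the range, 6 of them with probe sets averaged. The shared SMAD4 had 3594, 3013 and 3309, and its log2 level was 7.83 with probe sets averaged, in place of 11.69. Of the SMADs that BMP receptors phosphorylate, SMAD5 had 2762, 3251 and 2776, SMAD1 had 2185, 1710.1 and 1642 and SMAD9 had 853, 689.8 and 716. SMAD2 had 2861, 3019 and 2958 and SMAD3 had 2262, 2706 and 2649.9, the pair used by TGF-beta and activin. The inhibitory SMAD7 had 1276, 1507 and 1286 and SMAD6 had 522, 551 and 622. Their ratios ran from 1.06 in SMAD2 to 1.33 in SMAD1, where replicate 1 was the highest. All 4 ID genes were above the range too. Beside ID1, ID4 had 3339, 2939.9 and 3298 and ID2 had 1043, 1056 and 1087. ID3 had 2681, 2362 and 1692, the widest of the family with a ratio of 1.59, and replicate 3 was the lowest, as in ID1. In ID2 the cultures were within a ratio of 1.04.

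**Figure D4:**
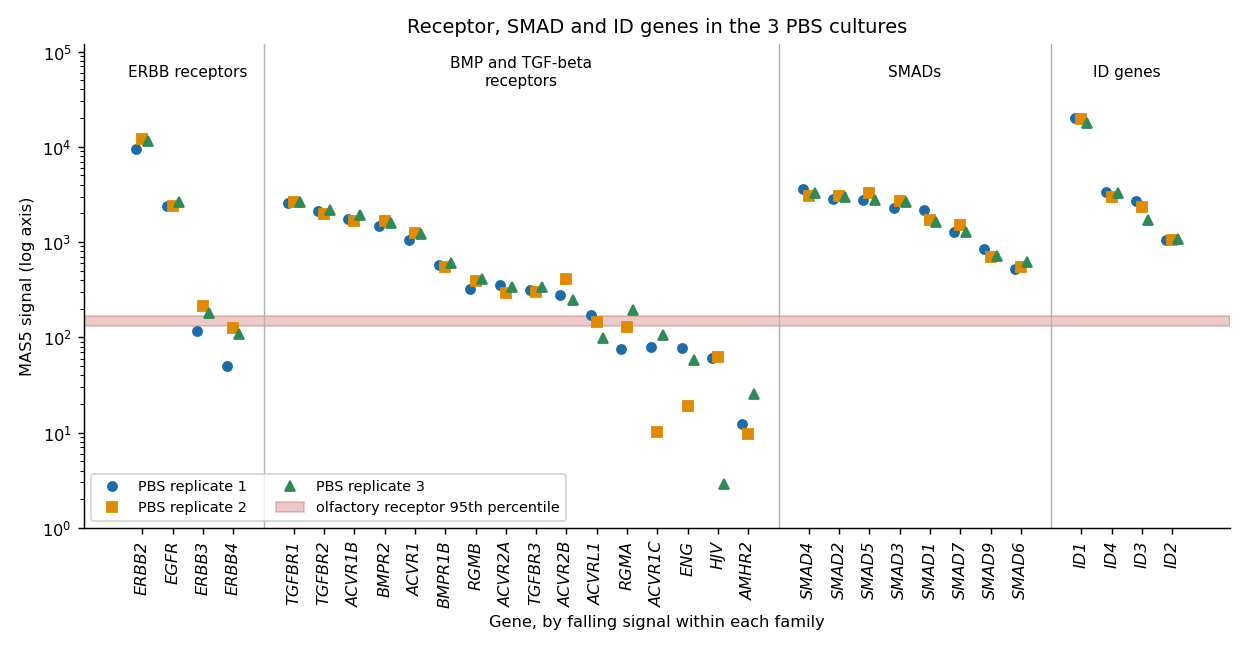
MAS5 signals (log axis) of the ERBB receptors, the BMP and TGF-beta receptors, the SMADs and the ID genes are plotted for each of the 3 PBS cultures, with the olfactory receptor 95th percentile as a band. ERBB2 and ID1 are the brightest of their families, all SMAD and ID genes lie above the band, and the points of genes under it scatter more widely.

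Of 28 measured BMP and TGF-beta family ligands 8 were above the range (28.6%), and 4 with probe sets averaged. BMP2, the ligand that other cultures of the series received, had 929, 868 and 854 in the PBS cultures. TGFB1 had 396, 393 and 385, a ratio of 1.03. INHBC, an inhibin subunit gene, had 1636, 1593 and 1389, and BMP1, GDF11, INHBA, GDF15 and BMP15 were above the range as well. BMP1, a procollagen protease and not a ligand in spite of its name, had 265, 402 and 569, GDF15 had 152, 337 and 319.5 and INHBA had 389, 194 and 287, each with a ratio of 2 or more. BMP4 had 9.37, 9.74 and 16.3, and BMP3, BMP7, TGFB2 and TGFB3 did not pass on any array either. The secreted antagonists NOG, CHRD, GREM1, FST, SOST and BMPER were not above the range, GREM1 with 3.2, 7.93 and 4.52. Other modulators were bright. TWSG1, a secreted BMP-binding protein, had 14686, 13683 and 13019.9, FSTL1 had 6346, 6246 and 6586, and SMURF2, a ubiquitin ligase that targets SMADs and receptors, had 4890.0, 3719 and 4197. The transcriptional antagonists TOB1 and SKIL were above the 90th percentile, and the pseudoreceptor BAMBI had 700.2, 493 and 544.

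In the WNT pathway 20 of 33 receptors and regulators (60.6%) and 6 of 15 ligands (40%) were above the range, against 51% of all genes. With probe sets averaged 14 of the receptors and regulators and 2 of the ligands were. CTNNB1, which encodes beta-catenin, had 17566, 20447 and 18139. SFRP1, a secreted WNT inhibitor, had 4491, 5351 and 5208, FZD6, a frizzled receptor, had 4727, 4656 and 4540.2, and the nuclear partner TCF7L2 had 3606, 2974 and 3035. FZD1 to FZD7 were all above the range, and FZD9 and FZD10 were not above it on all 3 arrays. AXIN2, a feedback target of the pathway, had 211, 259 and 212, and LEF1, LGR5, NKD1 and RNF43 did not pass on any array. The ligands above the range were WNT10A, WNT6, WNT7A, WNT9A, WNT7B and WNT16, of which WNT10A was the brightest with 544, 711 and 872. In the Hippo pathway 17 of 18 genes were above the range. WWTR1, which encodes the coactivator TAZ, had 10825, 9969 and 9251, and YAP1 had 7535, 7211 and 7489. The binding partner TEAD1 had 4510.5, 4420.4 and 4673. Of their targets CCN1 had 1268, 1394 and 1348 and CCN2 had 346, 276 and 261, and ANKRD1 was not above background.

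Of the Notch pathway 13 of 22 genes were above the range (59.1%, against 51% of all genes), and 10 were with probe sets averaged. ADAM10, the protease that cuts Notch, had 10550.4, 11133 and 12006, and RBPJ, the DNA-binding partner of Notch, had 2594, 2882 and 3274. The receptor NOTCH2 had 1477, 1675 and 1743 and NOTCH1 had 546, 935 and 768, NOTCH4 passed on 2 arrays and NOTCH3 on 1. The ligand JAG1 had 2289, 2307 and 2036, and DLL1 and DLL4 did not pass on any array. The repressor HEY1 had 1514, 1536 and 1648, a ratio of 1.09, whereas HES1 had 624, 344 and 907, a ratio of 2.64. Both are Notch targets, and replicate 2 was the lowest in HES1. The ligand gene DLL3 was the other 2-fold member, with 182, 148 and 338. In the Hedgehog pathway GLI2, GLI3, PTCH1, SMO and SUFU were above the range and GLI1, SHH, IHH, DHH and HHIP were not, and with probe sets averaged 2 of the 10 were.

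Most measured kinase cascade genes were above background by their brightest probe sets. Of the PI3K and mTOR genes 18 of 21 were above the range (85.7%), and of the RAS-MAPK genes 23 of 24 (95.8%), against 51% of all genes. With probe sets averaged 12 and 19 were, against 40% of all genes. A further 4 of the 25 listed PI3K and mTOR genes and 6 of the 30 listed RAS-MAPK genes were not analysed here. RHEB, the GTPase that turns on mTOR complex 1, had 10685, 9049.9 and 8764, and FOXO3, a factor restrained by AKT, had 3494, 3376 and 4146. SHC1, an adaptor of receptor kinases, had 6706, 6094 and 5729.8. Among the PI3K and mTOR genes 2 of 18 differed 2-fold, against the 2.96% of all genes above the range. That share falls from 8.53% in their dimmest quartile to 0.198% in the brightest, so it is not matched to the levels of the genes named here. AKT1 had 488, 906 and 1194 and MTOR had 146, 282 and 366, both lowest in replicate 1 and highest in replicate 3. In the RAS-MAPK list 3 of 23 did so, MAPK3 with 269, 626 and 467, ETV4 with 186, 351 and 169 and DUSP4 with 487, 640.0 and 1003. The feedback genes DUSP6 and SPRY2 were narrower, with ratios of 1.15 and 1.11. NF1, a RAS GTPase-activating protein, was the member not above the range, with 54.6, 45.7 and 72.5.

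Many cell cycle genes were bright. Of the cyclins, CDKs and MYC family 16 of 18 were above the range. PCNA, the sliding clamp of DNA replication, had 17959.6, 16468 and 16542, CCNB1, the mitotic cyclin, had 12168, 11798 and 11534, and CDK1, its kinase, had 9379, 12805 and 8859. CDK4 and CCNA2 were also above the 90th percentile. Among D cyclins, CCND1 had 2294, 2773 and 2406, CCND3 had 1164, 1557 and 1379 and CCND2 had 177, 226 and 206. MYC had 2187, 2351 and 2563, MYCN did not pass on any array and MYCL passed on 1. MKI67, the proliferation antigen, had 1278, 2072 and 1176, the widest of the list at 1.76 with replicate 2 the highest. Of the p53 targets and CDK inhibitors 14 of 16 were above the range. RBL2 and RB1, pocket proteins that restrain E2F, were above the 90th percentile with 4767, 4452 and 3412 and 4050.2, 3161 and 4193. CDKN1A, the p21 gene, had 661, 673 and 664, a ratio of 1.02, and CDKN1B, the p27 gene, had 2385, 2155 and 2186.

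Receptors of the interleukin-6 family and of TRAIL were bright. Of the interleukin receptors and JAK-STAT genes 23 of 32 were above the range. IL6ST, the gp130 subunit shared by the interleukin-6 family, had 8533, 10382 and 8955, and OSMR, which pairs with it to bind oncostatin M, had 3073, 3386 and 3702. JAK1 had 6210.1, 6404 and 7323. STAT3 had 4951, 4802 and 4904 and STAT6 had 4147, 4355 and 4265, both narrow with ratios of 1.03 and 1.05. IFNGR1 was above the 90th percentile. JAK2 passed on 1 array with 149.6, 50.7 and 109.7. Of the TNF and death receptor genes 14 of 18 were above the range. TNFRSF10B, a TRAIL receptor, had 5751, 6187 and 5603, its ligand TNFSF10 had 3003, 3459 and 3955, and TNFRSF12A, the TWEAK receptor, had 5407, 5163 and 4878. TNFRSF1A, the broadly expressed TNF receptor, had 1406, 1939.8 and 1613, while TNFRSF1B did not pass on any array.

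Inflammatory chemokine genes had high signals in the untreated cultures. Of the cytokines and chemokines 24 of 34 were above the range. MIF, a macrophage factor made by many tumour cells, had 24932, 28119 and 27012. The neutrophil chemokines CXCL1 and CXCL8 had 14623, 14899 and 17148 and 10553, 11706 and 10559. IL1A, which acts upstream of them in many epithelia, had 8862, 10573 and 11387, and CCL20 had 6811, 6429 and 7047. CXCL2 and VEGFA were above the 90th percentile as well. IL6 had 896, 1130.0 and 1023 and TNF had 1273, 1081 and 874. The interferon-linked chemokines CXCL10 and CCL5, the monocyte chemokine CCL2 and CXCL12 did not pass on any array. Of the interferon-stimulated genes 13 of 19 were above the range with none at the 90th percentile. OAS3 had 864, 1541 and 1174, IFIT3 had 881, 878 and 870.4, and MX1, RSAD2 and IFI44L did not pass on any array.

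Class I antigen presentation was above background and class II was not. B2M, the class I light chain, had 60311, 67240.3 and 69672, and HLA-C, HLA-B, HLA-E, HLA-F and HLA-G were above the 90th percentile. Class I genes are near-identical in sequence, so that their probe sets cannot be assigned to 1 gene with certainty. HLA-DRA, HLA-DMA, HLA-DPA1 and CD74 did not pass on any array, and their activator CIITA passed on 2 arrays with 214, 11.9 and 221. CD47, a signal against phagocytosis, had 11827, 11111 and 12440.1, and NT5E, the ectoenzyme CD73, had 7607, 6101 and 7521. CD274, which encodes PD-L1, passed on 2 arrays with 174, 139 and 166.

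G protein-coupled and nuclear receptors stood lower. Of 48 G protein-coupled receptors 18 were above the range (37.5%) and none reached the 90th percentile. GPRC5C, GPR39 and GPRC5A were the brightest of them. F2R, the thrombin receptor, had 1816, 1202 and 1219. CXCR4, the receptor of CXCL12, had 876, 828 and 2019.8, with replicate 3 far from the others and a ratio of 2.44, and ACKR3, the other CXCL12 receptor, did not pass on any array with 98.5, 92.3 and 93.2. Of the receptors of lysophosphatidic acid, LPAR1 and LPAR3 were above the range, LPAR2 passed on 2 arrays and LPAR4 and LPAR6 on none. The gonadotropin receptors FSHR and LHCGR did not pass. Of the nuclear receptors 18 of 39 were above the range (46.2%). NR3C1, the glucocorticoid receptor, had 2049, 2312 and 2124, PPARD had 1590.4, 1493 and 1554, and VDR, the vitamin D receptor, had 355, 627 and 602. ESR1, the oestrogen receptor alpha, passed on 1 array with 44.4, 143 and 103, ESR2 passed on 1 with 149, 120.4 and 21.1, and PGR, the progesterone receptor, passed on none with 10.6, 47.5 and 3.29.

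Most glycolytic steps had a bright isoform, and isoforms of other tissues were dim or at background. Of the glycolysis list 24 of 32 were above the range and 6 were at or above the 99th percentile. GAPDH had 59631, 79697 and 79943, ENO1, an enolase, had 57479.7, 66360 and 72987, and PGK1 had 39605, 39939 and 46617. ALDOA and LDHB were in the top 1% beside LDHA, and TPI1, PGAM1, PKM, PFKP and GPI were above the 90th percentile. Among the hexokinases HK1 had 1808, 3346 and 2514 and HK2 had 742, 707 and 828, while HK3 did not pass on any array. Among the phosphofructokinases PFKP had 7997, 10562 and 10622, PFKL had 723, 586 and 1015 and PFKM had 430.2, 539.8 and 487. The glucose transporter SLC2A1 had 2010.2, 1979 and 2096, and SLC2A2, SLC2A3 and SLC2A4 did not pass. PKLR, the liver pyruvate kinase, and PGAM2, the muscle mutase, did not pass either. The germ cell genes LDHC and PGK2 were above the range with 133, 212 and 311 and 147, 152 and 182, close to the background level. Their probes can bind RNA of related genes, so these 2 values are uncertain.

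Of the gluconeogenesis and glycogen genes 7 of 14 were above the range (50%), near the 51% of all genes, and of the pentose phosphate genes 6 of 7. Members differed within these lists. FBP1, G6PC1 and PCK1, enzymes of gluconeogenesis, did not pass on any array, while PCK2, the mitochondrial isoform, had 714, 698 and 688. GBE1, the glycogen branching enzyme, had 6173, 6864 and 7002, and PGM1, which links glucose phosphates to glycogen, had 7702, 7539 and 7312. PYGL and PYGB, the liver and brain phosphorylases, were above the range and PYGM of muscle was not. TKT, transketolase, had 13626, 16389 and 13885, and TALDO1, transaldolase, had 10339, 9963 and 9648, whereas TKTL1 did not pass. In the entry to the tricarboxylic acid cycle and the cycle itself 28 of 32 were above the range, 13 of them at or above the 90th percentile. MDH1 and MDH2, the malate dehydrogenases, had 11346, 11370.4 and 11796 and 8689, 8437 and 8505, and CS, citrate synthase, had 7697, 6804 and 6353. The median ratio of this list was 1.22. PDK3, a kinase that restrains pyruvate dehydrogenase, was its only 2-fold member, with 877, 1957 and 897, while PDK1 had 927, 1134 and 1215. OGDH, a subunit of the oxoglutarate dehydrogenase, did not pass on any array with 126, 77.5 and 133.

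Of the fatty acid and sterol genes 23 of 35 were above the range. ELOVL5, an elongase of polyunsaturated fatty acids, had 12144, 11096 and 11205, FABP5, a fatty acid carrier, had 9977, 10180.2 and 8990.4, and ACLY, which makes cytosolic acetyl-CoA, had 6090.1, 6931 and 6874. SCD, the stearoyl-CoA desaturase, had 5017, 7071 and 7295. FASN, the fatty acid synthase, had 494, 645 and 955, the lowest in replicate 1. HADHB, a subunit of the mitochondrial trifunctional protein, had 5439, 5422 and 5431, nearly equal in the 3 cultures, while its partner HADHA had 2122, 2999.8 and 1493, a ratio of 2.01. CPT2 had 1084, 454 and 441 and FADS2 had 433, 417 and 211, the other 2-fold members. FABP4, FABP7, CD36 and PLIN1, genes of fat cells and brain, did not pass on any array.

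Of the amino acid and one-carbon genes 29 of 37 were above the range, and none differed 2-fold. SLC38A2, a neutral amino acid transporter, had 20535, 20939.9 and 22086. PSAT1, of serine synthesis, had 6912, 6427 and 6555, and SLC7A11, the cystine transporter, had 6055, 6719 and 5845. MTHFD2, the mitochondrial folate enzyme, had 5199.6, 4763 and 5296. SLC38A1, SLC7A5, SHMT2, MTHFD1, GOT2, GLUD1 and GLUL were above the 90th percentile too. PHGDH, the first enzyme of serine synthesis, had 546, 930.1 and 653, the widest of the list at 1.7. The urea cycle genes ARG1 and OTC did not pass, and CPS1 had 1166, 1262 and 1234.

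Antioxidant genes were bright, 27 of 34 above the range and 16 at or above the 90th percentile. PRDX1, a peroxiredoxin, had 42987, 50255 and 45256, TXN, thioredoxin, had 28106, 25366 and 26546, and SOD1, the cytosolic superoxide dismutase, had 25460.4, 23376 and 24914. TXNRD1, which reduces thioredoxin, had 18931, 18566 and 18599, a ratio of 1.02. GPX4, the lipid peroxide reductase, had 12763, 14717 and 16539, and the NRF2 target NQO1 had 7314, 7687 and 7111. ALDH1A1, used as a stem cell marker in ovarian cancer, did not pass on any array with 1.95, 106 and 2.43, and ALDH1A3 had 866, 1010.4 and 803. ALDH2, the mitochondrial aldehyde dehydrogenase, was the 2-fold member of the list with 356, 666 and 728. Of drug and platinum transporters 10 of 17 were above the range (58.8%, against 51% of all genes), and 6 with probe sets averaged. ABCC1, the multidrug resistance protein MRP1, had 2382, 3214 and 2606. ABCB1, which encodes P-glycoprotein, and ABCG2 did not pass on any array, ABCB1 with 66.7, 65 and 21.9. SLC31A1, the copper transporter that also carries platinum drugs, had 1172, 763 and 991. ABCC3 had 165, 444 and 170.5, its high value in replicate 2.

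Of the integrins 13 of 23 were above the range (56.5%), near the 51% of all genes, and 8 were with probe sets averaged. ITGB1, the beta subunit shared by many integrins, had 57024, 67510.2 and 68231, ITGAV had 9159, 8687 and 8207 and ITGA6 had 4086, 3567 and 3629.6. ITGA5, the fibronectin receptor subunit, had 574, 1341 and 1103 and ITGB4 had 296, 501 and 610.3, both 2-fold with replicate 1 the lowest. Of the matrix, protease and inhibitor genes 25 of 34 were above the range. MMP1, a collagenase, had 30551, 32609 and 32836, and MMP7, matrilysin, had 5246, 3954 and 5261. TIMP2 and TIMP1, inhibitors of these enzymes, had 14549, 13002 and 16034 and 8357, 9532 and 8395. The basement membrane genes LAMC1, LAMB3, COL4A1 and COL4A2 were above the 90th percentile. The fibrillar collagen genes COL1A2 and COL3A1 did not pass on any array.

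Genes of the hypoxia response were largely above background at 24 h without treatment, 26 of 28 of those measured. HIF1A, the oxygen-regulated transcription factor, had 34895, 34429 and 35386, a ratio of 1.03. BNIP3L, a mitophagy receptor, had 9051, 7259 and 8089, NDRG1 had 7040.0, 6260 and 8568, and DDIT4, an inhibitor of mTOR complex 1, had 5883, 4636 and 6792. Replicate 3 was the highest of the cultures in 18 of the 26 genes, against 32.5% of all genes above the range. Among those with a wide ratio were CXCR4, LOX, a matrix cross-linking oxidase, with 344, 185 and 404, ADM, which encodes adrenomedullin, with 1643, 1242 and 2398, and EGLN3, an oxygen sensor, with 575, 499.5 and 891. Of the 24 glycolysis genes above the range, 4 of which are also in the hypoxia list, replicate 3 was the highest in 16. Below the 90th percentile it was the highest in 12 of 17 hypoxia genes and 8 of 13 glycolysis genes. With each array centred on its median signal the count for hypoxia was 4, when 1057 of all 10078 genes were highest in replicate 3, and it was 17 with quantile normalization. For glycolysis these counts were 7 and 13. The median signals of the 3 arrays over all probe sets were 86.7, 98.2 and 107, and the part of the scaling in this order was not tested beyond these settings.

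Of the ATF4 and endoplasmic reticulum stress genes 18 of 20 were above the range. HSPA5, the chaperone BiP, had 21959, 24439 and 25215, ATF4 had 8292, 7868 and 7932, and DDIT3, which encodes CHOP, had 352, 444 and 567. CHAC1 did not pass on any array, and SESN2 passed on 1. Of the immediate early genes 15 of 18 were above the range. IER3 had 21312, 19355 and 19254, JUN had 3192, 2408 and 3074, FOS had 306, 326 and 219 and EGR1 had 595, 685 and 626. FOSB and EGR3 did not pass on any array.

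Markers of other cells were mostly at background. Above the range were 1 of 8 endothelial markers (PECAM1, 209, 216 and 330.1), 1 of 10 fibroblast markers (COL1A1, 387, 267 and 314), 2 of 7 mesothelial markers (PDPN, 564, 1063 and 911, and LRRN4, 565, 513 and 606), and none of 8 leukocyte or 5 granulosa markers. With probe sets averaged no endothelial or fibroblast marker was. The defining genes CDH5 of endothelium (17.2, 12.8 and 19.1), PTPRC of leukocytes (60.9, 27.1 and 44.4) and FOXL2 of granulosa cells (42.6, 8.37 and 36.7) did not pass on any array. The summed signals of the endothelial list were 616, 621 and 598, and those of the fibroblast list 901, 679 and 1242.

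The cultures were close to each other in most genes. Of the 10078 genes above the range 1752 (17.4%) differed by 1.5-fold or more, beside the 298 that differed 2-fold. The spread narrowed with the level. In the dimmest quartile of these genes, with signals from 152 to 474, the median ratio was 1.43 and 8.53% differed 2-fold. In the brightest quartile, from 2391 upward, these values were 1.15 and 0.198%. In the 298 genes replicate 1 was the lowest in 153, and replicate 3 was the highest in 143. The limit of the range was 131 on replicate 1 and 166 on replicate 3, which admits dim genes with this order more readily. In the 23 bright 2-fold genes described below, replicate 1 was the lowest in 6 and replicate 3 was the highest in 6. The part of the unequal limits in the order of the 298 genes was not tested. In the 200 brightest genes of all replicate 1 was the lowest in 141, with a median log2 deviation of -0.10 from the gene's mean. With quantile normalization that count was 79, so the position of replicate 1 among the brightest genes changes with the scaling.

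The 20 genes with the largest ratios had geometric means from 220.3 to 1311, and 10 of them had a single probe set. Replicate 3 was the highest in 12 of the 20 and replicate 1 the lowest in 11, against 32.5% and 35.1% of all genes above the range. The unequal limits of the range on replicates 1 and 3 admit dim genes with this order more readily. SP6, a zinc finger factor, had 132, 776 and 383, a ratio of 5.88. BCL6, a transcriptional repressor, had 356, 154 and 681. HSF1, the master factor of the heat shock response, had 695, 182 and 427. IGFBP1, an insulin-like growth factor binding protein, had 700.0, 201 and 401, the highest in replicate 1. The high culture was replicate 2 in SP6, 3 in BCL6 and 1 in HSF1 and IGFBP1. ACTBP9 and the uncharacterised locus LOC105376292 followed HSF1 in the order of ratios, and ACTBP9 is an actin pseudogene whose probes can bind actin RNA. ICOSLG, WBP2, MON1A, LOC100130872, SLIRP-OT1, BNC2, UNC93B1, ATOSB, AAAS, SMIM30, SORBS3, HDAC5 and PLEKHG2 had ratios from 2.82 to 3.55. CTNNBL1, a spliceosome-associated protein, was the brightest of the 20 with 704, 1559 and 2053. BNC2 had a ratio of 1.14 on the probe set that was brightest over all 12 arrays, so its spread rests on the choice of probe set. With the probe sets of a gene averaged the ratio was under 2 in 8 of the 20, among them BCL6 with 1.97, HSF1 with 1.69, IGFBP1 with 1.48 and ICOSLG with 1.13. Within the other groups of 3 cultures, 10 of the 20 differed 2-fold with BMP2, 8 with DM and 3 with both. These counts did not require a signal above the olfactory receptor range in those groups, so some may rest on values near background. With no such limit 7618 of the 19775 genes differed 2-fold in the PBS cultures. SORBS3 and UNC93B1 were among those that varied in several groups, SORBS3 with ratios of 2.31, 1.61 and 2.83, and UNC93B1 with 5.51, 2.09 and 3.07, with BMP2, DM and both. HSF1 and BCL6 had ratios under 2 in every other group.

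Bright genes that varied were few. At a geometric mean of 1000 or more, a limit chosen after the values were seen, 23 of 5092 genes differed 2-fold. Of these, 3 were encoded by the mitochondrial genome, whose genes were also listed as a set only after the values were seen. All 7 measured mitochondrially encoded genes differed by at least 1.5-fold and were highest in replicate 3. The cytochrome c oxidase subunit COX3 had 5214, 2444 and 6323 and COX1 had 9718, 6242 and 13653, both lowest in replicate 2. COX2, ATP6, a subunit of ATP synthase, and the NADH dehydrogenase subunits ND2, ND4 and ND6 had ratios from 1.56 to 2.02. With quantile normalization replicate 3 was the highest in 7 of these 7, and with median centring in 6. PTP4A1, a phosphatase that is induced by growth signals, had 8329.9, 3505 and 5696, and MALAT1, a nuclear long noncoding RNA, had 25313, 11905 and 18634, both highest in replicate 1 and lowest in replicate 2. TPM4, a tropomyosin, had 4403, 1963 and 2424, and VASP, a regulator of actin filaments, had 929, 2221 and 898. In the other groups the share of genes with a 2-fold difference among 3 cultures was 3.71% with BMP2, 3.44% with DM and 2.66% with both. Of the 298 genes of the PBS cultures 30, 32 and 28 also differed 2-fold there.

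**Figure D5:**
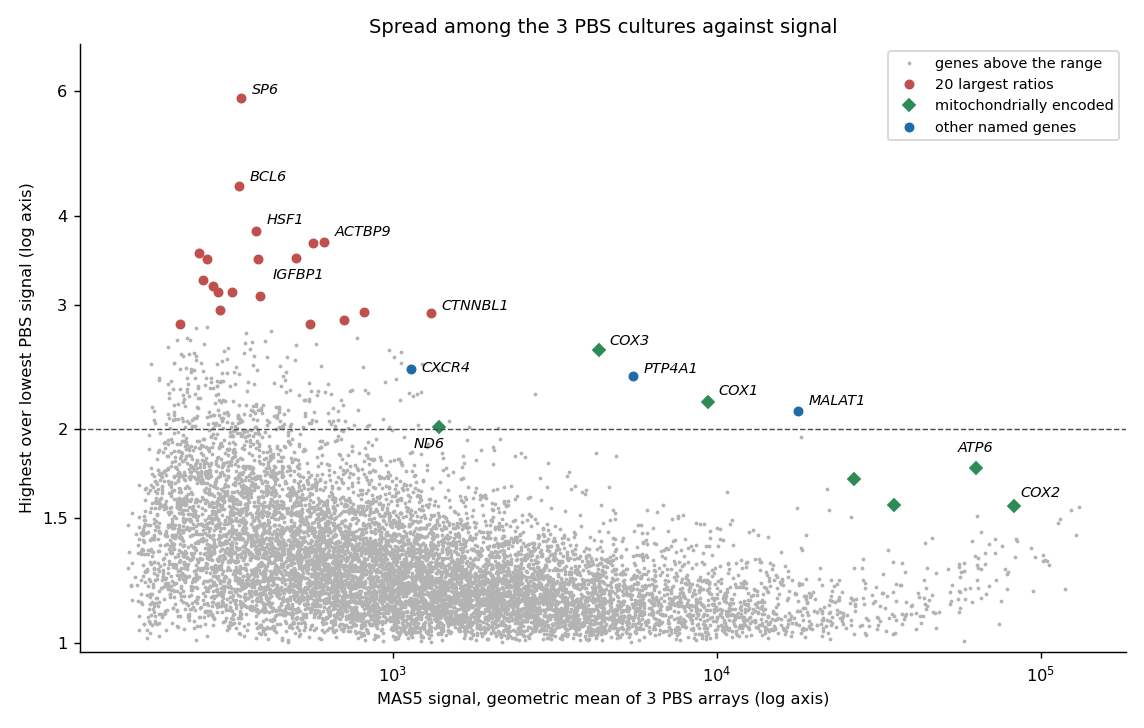
The ratio of the highest to the lowest of the 3 PBS signals is plotted against the geometric mean signal (both log axes) for the 10078 genes above the olfactory receptor range, with the 2-fold level as a dashed line. Of the 20 largest ratios 19 lie below a signal of 1000, CTNNBL1 lies above it, and COX3, PTP4A1, COX1 and MALAT1 are among the few bright genes above the line.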

How the data were processed

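RNA of each culture was hybridised to 1 Affymetrix array. Each deposited value is a linear intensity of a probe set, computed by the authors with MAS5 per the submitters' processing notes, version not given in the sources used here. The table held 54613 probe sets. The equal trimmed means (2% trimmed) show that the authors had scaled the arrays, and they were used without further normalization. MAS5 detection calls were not analysed here. Of the probe sets 41091 named 1 gene, 1801 named several and 11721 were not listed, and 41037 of the 41091 matched RefSeq by gene number. Signals under 1 were set to 1 and taken to log2, and each gene kept the probe set with the highest mean over the 3 PBS arrays. Means ± SD are of linear signals. Levels, ranges and ratios were computed in Python 3.11.15 with pandas 2.3.3, and the code was tested on simulated data. No test was run, since 1 group has no contrast.

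The genes, 50 gene lists and 10 further lists were chosen with earlier results of these data known, the 10 after these values were seen. Genes were named by fixed rules: the 3 markers, the 20 brightest, the 20 with the largest ratio, receptors, SMADs and ID genes, list members from the 90th percentile, isoforms needed to say which are above background, and up to 4 members of each list with the largest ratio. Other scalings, other probe set choices, an offset of 32, other background references and leaving out each array were tried.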

Additional observations from a re-analysis of the deposited data

How the results depend on the processing

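No paired analysis was possible because no comparison between groups was made. The number of genes above the background level was 10078 and ran from 7905 with a gene's probe sets averaged to 10987 with the median of all probe sets as the limit, and from 10347 to 10532 when 1 array was left out. The number of genes that differed 2-fold (298) depended more on the choices. It was 185 with 32 added to each signal, 549 over genes that passed the probe set median on each array, 1752 at 1.5-fold and 7618 with no filter, and it ran from 120 to 139 when 1 array was left out, where 2 cultures take the place of 3. With median centring it was 342, of which 186 were in the reported set, and with probe sets averaged 439, of which 129 were. With probe sets averaged per gene the log2 level of ERBB2 was 10.50 in place of 13.41 and that of PAX8 was 10.20 in place of 12.34, since dim probe sets of the same gene enter that mean. The log2 level of ID1 was 14.21. With quantile normalization the levels of ERBB2, PAX8 and ID1 were 13.41, 12.33 and 14.21, each within 1 SD of the reported level. Median centring cannot change a gene's mean over the 3 arrays, and leaving out 1 array cannot move it by 1 SD. Those settings therefore do not test how stable the levels are. With probe sets averaged 12 of 50 list counts and 32 of 53 levels moved beyond the limits used for a stable value, and the BMP and TGF-beta receptors went from a share above that of all genes to one below it. The 3 arrays and the probes' unequal binding limit what the levels can show, and dim genes have the widest spread.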

Other observations

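Gene families outside the lists above were counted after their values had been seen. Of the S100 proteins, small calcium sensors, 11 of 19 were above the olfactory receptor range (57.9%, against 51% of all genes), and 5 were in the top 1%. S100A11 had 33959.7, 38602 and 42708, S100A10, the partner of annexin A2, had 25224, 28806 and 30904, and S100A2 had 21987, 21134 and 22729.5. S100A7, S100A8, S100A9 and S100B, which are known from skin, myeloid cells and glia, did not pass on any array. Of the annexins, which bind membranes in the presence of calcium, 8 of 11 were above the range. ANXA2 had 55718, 63857 and 71658, ANXA1 had 24478, 24529 and 26749.6, and ANXA9, ANXA10 and ANXA13 did not pass. Metallothioneins, which bind zinc and copper, had 6 of 8 members above the range, MT2A with 41465, 42248 and 44159 and MT1X with 27252, 24096 and 27674. Members of the MT1 family are near-identical in sequence and their values may be shared. Of the proteasome subunits 33 of 34 were above the range with a median ratio between cultures of 1.12, PSMB1 the brightest with 33239, 33377 and 29601, and the testis subunit PSMA8 was not. Chaperone genes had 13 of 15 members above the range. HSPD1 and HSPE1, the mitochondrial chaperonin pair, had 48929, 44451 and 48615 and 18309.7, 13649.9 and 15661, and HSF1, given above for its spread, was the 2-fold member.

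The HOX genes, which keep the record of position along the body axis, were above background in part of the clusters. Of 28 measured HOX genes 10 were above the range, 35.7% against 51% of all genes. These were HOXB2 to HOXB9 together with HOXD8 and HOXD9. HOXB7 had 5022, 4867 and 4704, HOXB6 had 3067, 2347 and 2893 and HOXB2 had 2526, 2787 and 2362. HOXB1 and HOXB13 at the ends of that cluster passed on 1 array each. HOXC4, HOXC6 and HOXC10 did not pass on any. Of the cancer-testis antigens, genes normally silent outside germ cells, 1 of 15 was above the range, PRAME with 1344, 1245 and 1977, and the MAGEA genes measured did not pass on any array, MAGEA4 with 7.5, 2.24 and 14.1.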
